A study of Phyllostachys edulis with 2 samples.

Results

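Auxin response factors (ARFs) were followed in rhizome lateral buds of Moso bamboo (Phyllostachys edulis), a woody grass whose shoots grow from underground buds. The members are all transcripts whose protein description names an auxin response factor, in any of its usual spellings. This rule, which uses no measured value, found 30 of 148492 assembled transcripts, in 8 of 85391 loci, and their descriptions carry 7 member numbers, which are 5, 16, 18, 21, 23, 24 and 30. Buds of wild type plants were sequenced as 1 library at the early shoot stage and 1 library at the germination stage. RNA was extracted from pooled lateral buds collected underground, so each library is a mean over buds. As each stage has a single library, the differences below could not be checked in replicates, and no significance test was run. In total, 7878826 reads were counted in early shoot and 4481221 in germination.

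ARFs are the transcription factors through which auxin changes gene expression. They bind auxin response elements in promoters through a B3-type domain, and at low auxin most of those that can activate genes are held back by Aux/IAA proteins. When auxin rises, a receptor of the TIR1 family in an SCF ubiquitin ligase binds the Aux/IAA protein, which is then degraded, and the ARF is released. In rice, ARF5, ARF16 and ARF21 belong to the class with a glutamine-rich middle region, whose members are regarded as activators, and ARF23 and ARF24 do not. In shoot buds auxin signaling is known for its part in organ initiation, vascular development and the outgrowth of lateral buds.

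The ARFs of these buds did not move as 1 group. The locus matched to rice ARF16 was the only ARF locus called, and it was lower in early shoot. The locus matched to rice ARF23 had the most reads on transcripts described as ARFs. It lay on the other side, with a higher level in early shoot. The other 6 loci had few reads on transcripts described as ARFs, and none of them was called. Every ratio here is early shoot over germination on the log2 scale, after division by 1.8, the median ratio of the counts over transcripts with reads in both libraries. For each transcript or locus a G-fold value was also calculated, a cautious form of the same ratio: the bound closest to 0 that the true ratio passes with a probability of 99%, given the counts. It was set to 0 if the bounds on either side have opposite signs. A transcript was called when its G-fold value was beyond 1 in either direction and its RPKM (the reads scaled by transcript length and by the total of the library) was above 1 in both libraries. A locus was called in the same way from its summed reads and summed RPKM. The 95% intervals are exact Clopper-Pearson intervals, which cover counting error only.

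All 30 ARF transcripts passed the RPKM cutoff. Of these, 4 were called lower in early shoot and 0 were called higher in early shoot. Over all 120465 transcripts past the cutoff, 3.77% were called lower in early shoot and 1.4% higher. Transcripts with few reads are less easily called, and only 54369 of these have 40 reads or more. The share called among those was not calculated, so this background is not matched to the ARF transcripts in depth. The 4 called transcripts share a single locus and are not independent of each other. G-fold values were above 0 for 9 ARF transcripts, below 0 for 9 and at 0 for 12, and among the transcripts past the cutoff whose reads sum to 40 or more, as those of 29 of the 30 ARF transcripts do, 24.2% were above 0 and 22.3% below it. With the reads of the ARF transcripts summed per locus, 1 of 8 ARF loci was called lower in early shoot and 0 higher. For the background, all transcripts of a locus were summed, and with such sums 1 ARF locus was called as well. The background was 3.7% lower and 1.39% higher over 68834 loci. It was 9.33% lower and 4.53% higher over the 20965 of them with at least 40 reads, as all 8 ARF loci have. Of these loci, 29.1% had G-fold values above 0 and 26.7% below it. A single called locus of 8 is therefore no result about the family. The median log2 ratio was -0.27 over the 8 ARF loci, from ARF transcripts only, and 0.08 over the loci with at least 40 reads, from all their transcripts.

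The ARF16 locus (Locus_6517) has 6 transcripts between 1960 and 3696 bp, and all of them are matched to ARF16 of rice, which is required there for responses to auxin and to phosphate starvation. Its transcript of 3620 bp had 74 reads in early shoot and 131 reads in germination, and its transcript of 3696 bp had 72 in early shoot and 127 in germination. The transcript of 3604 bp had 66 reads in early shoot and 112 in germination, and that of 1960 bp had 44 in early shoot and 78 in germination. These are the 4 called transcripts, with G-fold values of -1.19, -1.17, -1.09 and -1.05. The remaining transcripts had G-fold values below 0 that missed the threshold. The transcript of 3616 bp had 59 reads in early shoot and 86 in germination (G-fold value -0.83), and that of 3619 bp had 92 in early shoot and 90 in germination (G-fold value -0.32). The library of early shoot has more reads in total, so an equal count stands for a lower level in it. In RPKM, the 6 transcripts ranged from 2.07 to 3.23 in early shoot and from 5.31 to 8.88 in germination, and the ranges did not overlap. Summed over the locus there were 407 reads in early shoot and 624 in germination, a log2 ratio of -1.46 (95% interval -1.65 to -1.28) and a G-fold value of -1.25. The transcripts of 3619 and 3620 bp differ in length by a single base, yet the log2 ratio of the first lay above that of the second by 0.86 (95% interval 0.24 to 1.47), in a pair chosen after its values had been seen.

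A second locus, Locus_7400, is also described as auxin response factor 16, from another rice protein entry that is marked as putative. Whether both entries stand for 1 rice gene is not stated in the descriptions, and the loci were kept apart. Its 5 ARF transcripts had 229 reads in early shoot and 162 in germination, a log2 ratio of -0.35 (95% interval -0.65 to -0.05). The locus was not called, and its G-fold value of -0.004 was 0 under each of the 4 other scalings of the libraries. Its transcripts had log2 ratios on both sides of 0. The 4 transcripts of 1712 bp had between 35 and 58 reads in early shoot and between 20 and 43 in germination, with log2 ratios from -0.57 to 0.47 and G-fold values of 0. The transcript of 831 bp had 34 reads in early shoot and 48 in germination, a log2 ratio of -1.35 (95% interval -2.02 to -0.68). It lay below the 1712 bp transcript with 50 reads in early shoot and 20 in germination by 1.82 (interval of the difference from 0.77 to 2.89). These transcripts were set side by side after their values had been seen. When both loci with the number 16 are taken as 1 member, 636 reads in early shoot and 786 in germination gave a log2 ratio of -1.15 (95% interval -1.307 to -1.001), and the G-fold value of -0.97 missed the threshold. The call for ARF16 is thus that of Locus_6517.

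Among the members numbered after rice proteins, ARF21 and ARF5 are the others of the glutamine-rich class. The class of the members numbered after maize proteins is not given here. ARF21, also listed as OsARF7b, is matched to both transcripts of Locus_21467, with 26 reads in early shoot and 26 in germination on the transcript of 595 bp and 37 in early shoot and 20 in germination on that of 508 bp. Together they had a log2 ratio of -0.39 (95% interval -0.97 to 0.19), in which neither direction is excluded by counting error. ARF5 is matched to 2 transcripts of Locus_4765. The longer (1122 bp) had 38 reads in early shoot and 32 in germination and the shorter (802 bp) 42 in early shoot and 29 in germination, and their sum had a log2 ratio of -0.46 (95% interval -0.96 to 0.05). A difference was not detectable on the transcripts of either member at this depth, although an increase by 1 on the log2 scale lies outside both intervals. The ARF5 transcripts held 80 of the 902 reads of Locus_4765 in early shoot and 61 of 801 in germination. They may therefore not stand for the gene. All transcripts of that locus, some of them matched to ARF30, had a log2 ratio of -0.68 (95% interval -0.82 to -0.54).

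ARF23, also listed as OsARF1, was the first by number of reads on ARF-described transcripts. In rice, ARF23 is known to promote, together with ARF24, the expression of an actin-binding protein in cell growth. Locus_1241 holds 9 transcripts matched to it, with 8577 reads in early shoot and 2602 in germination. The log2 ratio of the sum was 0.87 (95% interval 0.81 to 0.94) with a G-fold value of 0.80, so the locus had more reads in early shoot by more than counting error but was not called. That interval assumes that no read was counted on several transcripts, which is not known. The 5 transcripts of 2981 bp had 1100, 1185, 1133, 1102 and 1301 reads in early shoot, against 331, 361, 313, 351 and 387 reads in germination, listed in the same order. Their log2 ratios lay between 0.80 and 1.01, and the highest belonged to the transcript with 1133 reads in early shoot and 313 in germination, which had the highest G-fold value of all ARF transcripts, 0.79. The transcripts of 2984 bp (1157 reads in early shoot, 376 in germination), 3784 bp (1289 in early shoot and 393 in germination) and 898 bp (298 in early shoot and 84 in germination) had G-fold values of 0.58, 0.67 and 0.57. Only the shortest ARF23 transcript, of 283 bp with 12 reads in early shoot and 6 in germination, was not apart from 0.

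ARF24, the partner of ARF23 named above, was represented by 1 transcript of 1581 bp in Locus_2641, with 204 reads in early shoot and 102 in germination. Its log2 ratio was 0.15 (95% interval -0.20 to 0.51) and its G-fold value 0. The ARF23 locus lay above it by 0.72 (95% interval 0.36 to 1.08). For this transcript an increase or decrease by 1 on the log2 scale lies outside the interval, which covers counting error between the 2 libraries only. The transcript held 5.18% of the reads of its locus in early shoot and 5.41% in germination, so it may not stand for the gene.

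The last numbers, 30 and 18, come from maize proteins. ARF30 is matched to transcripts of 2 loci. In Locus_3435, the transcript of 1148 bp had 65 reads in early shoot and 20 in germination (log2 ratio 0.85, G-fold value 0.01) and that of 775 bp had 71 in early shoot and 38 in germination (log2 ratio 0.05). Locus_4765, which also holds the ARF5 transcripts, has an ARF30 transcript of 863 bp with 161 reads in early shoot and 69 in germination (log2 ratio 0.37, interval from -0.04 to 0.80) and another of 1279 bp with 50 in early shoot and 54 in germination (log2 ratio -0.96, interval from -1.54 to -0.38). The 2 ARF30 transcripts of that locus differed by 1.33 (95% interval 0.60 to 2.06), a pair chosen after its values had been seen. Over both loci ARF30 had 347 reads in early shoot and 181 in germination, a log2 ratio of 0.09 (95% interval -0.17 to 0.36). This sum pools loci that lay on opposite sides of 0 when all their transcripts were counted. Locus_3435 then had a log2 ratio of 0.40 and Locus_4765 one of -0.68. ARF18 rests on a single transcript of 184 bp in Locus_232, with 19 reads in early shoot and 28 in germination. Its log2 ratio of -1.41 was close to that of ARF16, but the interval reached from -2.33 to -0.52 and the G-fold value was -0.42. The difference between the ARF18 and ARF16 loci, 0.06, had an interval from -0.89 to 0.97 and is not known closely.

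**Figure D1:**
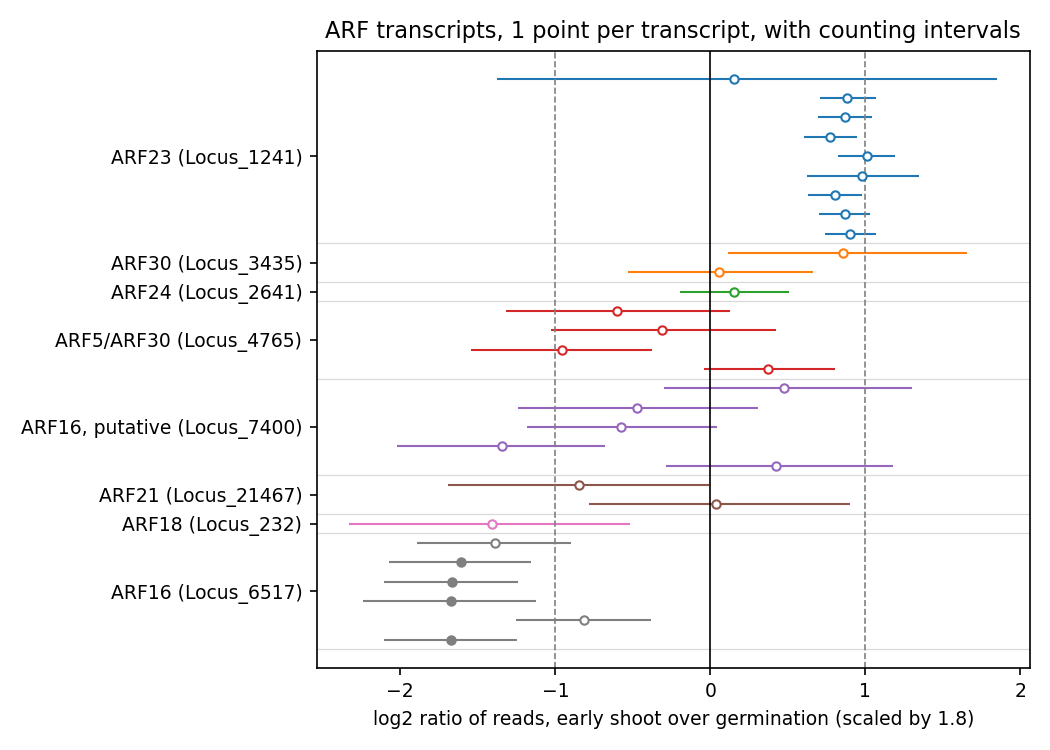
Log2 ratio of reads (early shoot over germination, x axis) of the 30 ARF transcripts, grouped by locus, with exact 95% counting intervals as bars, filled points for called transcripts and dashed lines at -1 and 1. The 6 ARF16 transcripts of Locus_6517 lie between -1.67 and -0.82, the 9 ARF23 transcripts between 0.15 and 1.01, and the transcripts of Locus_7400 and Locus_4765 on both sides of 0.

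ARF16 and ARF23 stood apart whatever the scaling of the libraries, since the difference of 2 ratios does not depend on it. The log2 ratio of the ARF23 locus was above that of the ARF16 locus by 2.34 (95% interval 2.14 to 2.53). The ARF23 locus also lay above Locus_7400 by 1.22 (from 0.91 to 1.53), above ARF21 by 1.27 (from 0.68 to 1.84), above Locus_4765 by 1.06 (from 0.78 to 1.34) and above Locus_3435 by 0.49 (from 0.02 to 0.95). ARF16 in turn lay below Locus_7400 by 1.12 (interval of the difference from 0.76 to 1.47) and below ARF21 by 1.07 (from 0.47 to 1.68). The pairs were taken around the loci with the highest and the lowest log2 ratio of the ARF loci, as seen in these data. The direction of each gap was therefore set by that choice, and the intervals make no allowance for it. These intervals compare the 2 libraries and not the stages.

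The make-up of the ARF reads differed between the libraries. ARF23 took 86.4% of the ARF reads in early shoot and 68.4% in germination. ARF16 of Locus_6517 took 4.10% in early shoot and 16.4% in germination. Each of the other loci held less than 5% in either library. These shares count ARF-described transcripts only. With all transcripts of the loci counted, Locus_1241 (ARF23) had 8768 reads in early shoot and 2691 in germination. Locus_232 had 5121 in early shoot and 3847 in germination, so on that count ARF23 was first only in early shoot. All ARF transcripts together had 9926 reads in early shoot and 3806 in germination, and the sign of that sum is that of ARF23. Without the ARF23 locus, left out after the data were seen, 1349 reads in early shoot and 1204 in germination remained, with a log2 ratio of -0.68 (95% interval -0.80 to -0.57).

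**Figure D2:**
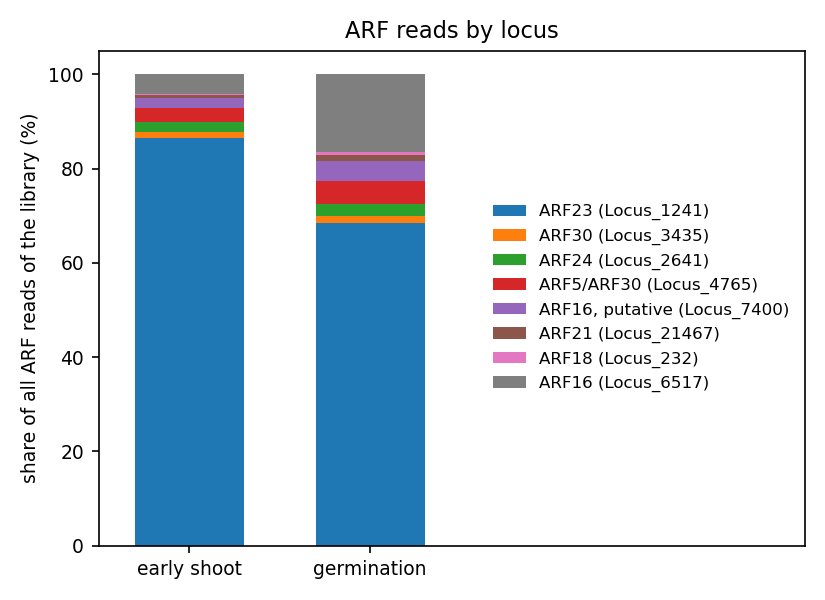
Share of all ARF reads of a library (y axis, %) held by each of the 8 ARF loci, early shoot left and germination right. Only ARF-described transcripts are counted. The ARF23 locus holds 86.4% in early shoot and 68.4% in germination, and the ARF16 locus holds 4.10% in early shoot and 16.4% in germination.

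Levels can be compared between loci only per length, here as the RPKM averaged over the ARF transcripts of a locus with their lengths as weights. In early shoot the ARF23 locus was highest, with 47.6 (exact Poisson interval from 46.6 to 48.7), followed by ARF24 with 16.4, ARF18 with 13.1, Locus_4765 (ARF5 and ARF30) with 9.08, Locus_3435 (ARF30) with 8.98, ARF21 with 7.25, Locus_7400 with 3.79 and ARF16 of Locus_6517 with 2.57. Neighbours from ARF24 down to ARF21 in this order had overlapping intervals, whereas ARF23 stood clear above them and Locus_7400 and ARF16 stood apart at the low end. In germination, ARF18 came first with 34.0, but its 28 reads left an interval from 22.6 to 49.1 that overlaps that of ARF23, with 25.4. They were followed by ARF24 with 14.4, Locus_4765 with 10.1, ARF21 with 9.31, ARF16 with 6.92, Locus_3435 with 6.73 and Locus_7400 with 4.71, and neighbours from Locus_4765 down to Locus_7400 had overlapping intervals. On this measure ARF16 was the lowest of the 8 loci in early shoot, and in germination its level could not be told from those of ARF21 and Locus_3435. The sum of the RPKM over the ARF-described transcripts of a locus is another measure, for the case that the reads of a locus were divided among its transcripts, and it gave another order. ARF23 was first by this sum, with 387.8 in early shoot and 207.4 in germination. ARF16 of Locus_6517 had 15.5 in early shoot, above ARF21 and ARF18, and 42.4 in germination, next after ARF23. Locus_4765 had 39.6 in early shoot and 41.7 in germination, Locus_7400 had 19.7 in early shoot and 27.8 in germination, and Locus_3435 had 18.8 in early shoot and 14.8 in germination. ARF24 had 16.4 in early shoot and 14.4 in germination, ARF21 had 14.8 in early shoot and 18.5 in germination, and ARF18 had 13.1 in early shoot and 34.0 in germination. The place of ARF16 among the loci thus depended on the measure, while its level was lower in early shoot than in germination on both.

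**Figure D3:**
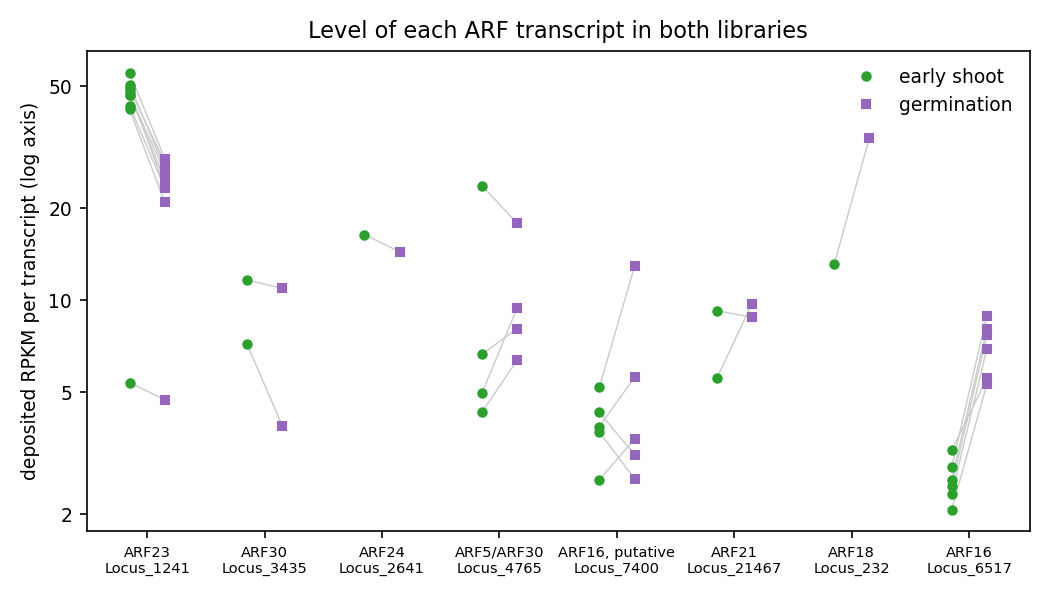
Deposited RPKM of each ARF transcript (y axis, log scale) in early shoot (circles, left) and germination (squares, right), with a line joining the values of 1 transcript, by locus. The ARF16 transcripts of Locus_6517 lie between 2.07 and 3.23 in early shoot and between 5.31 and 8.88 in germination, and 8 of the 9 ARF23 transcripts lie between 42.1 and 55.4 in early shoot and between 20.9 and 29.0 in germination.

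The description names an ARF on only some of the transcripts of most ARF loci. The 8 loci have 104 transcripts in all, of which 74 have no ARF description. Of these, 36 have no protein match, and the others are matched to proteins named only by an identifier, as hypothetical or as predicted. Such names alone do not tell whether the matched protein is an ARF, and the identifiers were not looked up here. These transcripts may thus include further ARF reads. ARF-described transcripts held 46.0% of the reads of these loci in early shoot and 34.7% in germination. For Locus_6517 and Locus_21467 the share was 100% in both libraries, and for Locus_1241 it was 97.8% in early shoot and 96.7% in germination. For Locus_232 it was 0.371% in early shoot and 0.728% in germination, for Locus_2641 (ARF24) 5.18% in early shoot and 5.41% in germination, and for Locus_3435 (ARF30) 6.77% in early shoot and 6.88% in germination, so that the ARF-described transcripts of these 3 loci are a small part of their reads. It was 32.3% in early shoot and 23.0% in germination for Locus_4765, and 60.4% in early shoot and 65.9% in germination for Locus_7400. With all transcripts counted, ARF16 was still the only called locus, and the log2 ratio of the ARF23 locus was 0.86. Locus_232 had 5121 reads in early shoot and 3847 in germination with a log2 ratio of -0.44, in place of -1.41. Locus_4765 had 902 in early shoot and 801 in germination, with -0.68 (95% interval -0.82 to -0.54) in place of -0.19. Locus_2641 had 3937 in early shoot and 1886 in germination, with 0.21 (95% interval 0.13 to 0.29), and Locus_3435 had 2009 in early shoot and 843 in germination, with 0.40 (95% interval 0.29 to 0.52). On this count 3 loci had G-fold values above 0, 3 below 0 and 2 at 0, where the ARF-described reads gave 1 above, 3 below and 4 at 0 (2 below and 5 at 0 under the other scalings).

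**Figure D4:**
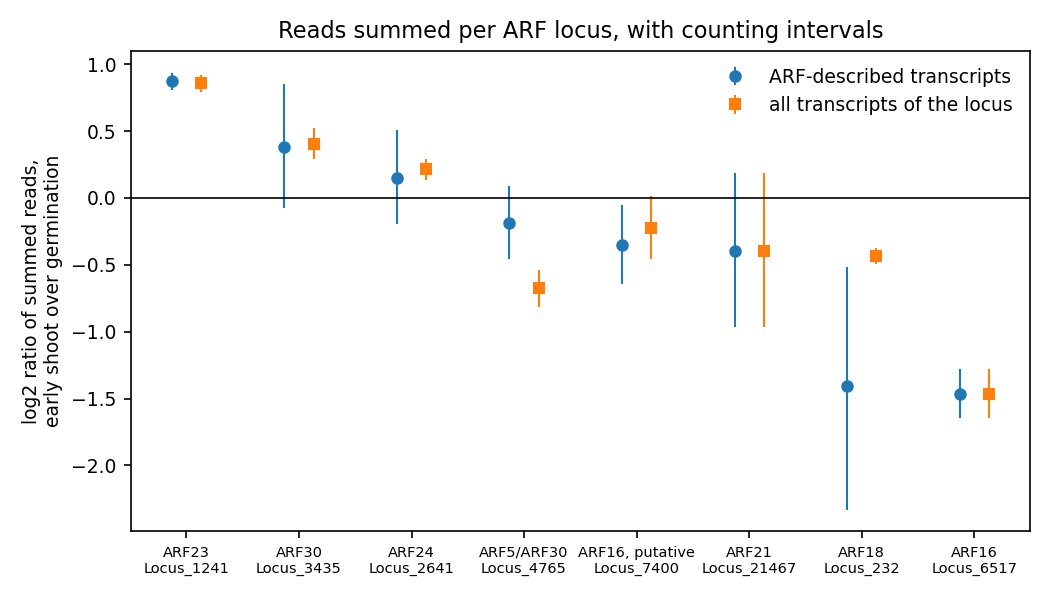
Log2 ratio of summed reads (early shoot over germination, y axis) per ARF locus, with exact 95% counting intervals, for the ARF-described transcripts (circles) and for all transcripts of the locus (squares). The ratios of ARF16 (-1.46) and ARF23 (0.87 and 0.86) hardly depend on this choice, whereas that of Locus_232 is -1.41 for the ARF18 transcript and -0.44 for the whole locus.

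Other genes of the auxin pathway were found by fixed search terms. TIR1, the auxin receptor, was represented by 6 transcripts of Locus_8807 matched to a TIR1-like protein of rice, with 952 reads in early shoot and 718 in germination. The log2 ratio of their sum was -0.44 (95% interval -0.58 to -0.30), 3 had G-fold values below 0 and none was called. Of the Aux/IAA proteins, the repressors that bind ARFs, 5 transcripts of 2 loci matched to IAA5 and IAA17 had 142 reads in early shoot and 54 in germination, a log2 ratio of 0.55 (95% interval 0.09 to 1.03), and none was called. Further Aux/IAA descriptions stood outside the search term. The transcript matched to IAA19 of maize had 127 reads in early shoot and 53 in germination, and those matched to IAA24 of maize had 58 reads in early shoot and 17 in germination in one locus, and 12 in early shoot and 0 in germination in another, where a count of 0 allows up to 3 reads. None of these was called.
The highest G-fold value among the pathway lists belonged to a GH3 enzyme, which conjugates auxin or jasmonate to amino acids. The single transcript (2001 bp), described as probable indole-3-acetic acid-amido synthetase GH3.11, had 214 reads in early shoot and 19 in germination. Its log2 ratio was 2.65 (95% interval 1.97 to 3.41), its G-fold value was 1.86, and it was called higher in early shoot. For auxin transport, the influx carrier had 39 reads in early shoot and 17 in germination (log2 ratio 0.35, interval from -0.51 to 1.26) and the efflux carrier had 13 in early shoot and 1 in germination (95% interval 0.12 to 8.26), and neither was called. The 12 transcripts found for SCF subunits, which include SKP1 and proteins named after it, had 4269 reads in early shoot and 2516 in germination, and none was called. The terms for TOPLESS corepressors, SAUR proteins and auxin synthesis matched no description, and these genes were not analysed here. In bulk buds, fewer cells that express a gene and less RNA per cell cannot be told apart.

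Marker genes were read from the same descriptions. The search terms for shoot meristem genes included rough sheath and scarecrow as well as knotted, KNOX and WUSCHEL. How particular each match is to the meristem was not checked. Reads were found on all 14 matched transcripts in both libraries, with 2341 in early shoot and 1688 in germination and a log2 ratio of -0.38. The 4 transcripts of dividing cell markers, from 3 loci, had 415 reads in early shoot and 108 in germination, a log2 ratio of 1.09 (95% interval 0.79 to 1.41). The 34 transcripts of green tissue genes had 4106 reads in early shoot and 2542 in germination (log2 ratio -0.16), with 34 found in early shoot and 33 in germination. The part of these cell markers in the ARF ratios was not tested.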

How the data were processed

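RNA of pooled buds was sequenced as 1 library per stage. The deposited tables hold, for every assembled transcript, a read count that was not normalized and an RPKM in which the authors scaled this count by length and by the sum of the table. Recalculated RPKM differed from the deposited ones by at most 0.0483. The submitters' processing notes name TopHat2 2.0.8b and Cufflinks 2.2.1, and the study's methods describe mapping to a draft genome and a protein search against rice. The tables appear to differ from that: their transcript names have the fields of a de novo assembly, and their matches include maize, sorghum, barley and wheat proteins. The assembler, counting program and search behind these tables are not given in the sources used here. Whether reads shared by similar transcripts were divided among them or counted on each is therefore not known. If they were counted on each, summed reads are too high and their intervals too narrow.

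The analysis used Python 3.11.15 with pandas 2.3.3 and with NumPy 2.4.6. SciPy 1.17.1 gave the quantiles and intervals and matplotlib 3.10.9 the plots. The G-fold value is modelled on the program Gfold and was calculated without it, from the 0.01 quantiles of a beta distribution whose parameters are the counts plus 1. The rule was tested on simulated data. Libraries were scaled by the median ratio, 1.8. Alternatives were 4 other scalings (edgeR 4.0.16 under R 4.3.3 gave the TMM factor), thinning, other quantiles, thresholds, cutoffs and ratios, whole loci and the most abundant transcript. The members and lists were chosen with earlier results of these data known. All members found were named, and other auxin genes are given by list. Reads amplified by PCR are not independent, and intervals cover counting error only. The minimum of 40 reads for the background was set after the data were seen.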

Additional observations from a re-analysis of the deposited data

How the results depend on the processing

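No paired analysis was possible because each stage has 1 library, and no replicate could be left out. Of 187 alternative values, 166 stayed within the counting interval or within 1.5 times the count, and no value of the called ARF16 locus changed sign. A locus that alone holds a named member is counted again as that member, so the 187 values are not all distinct. Where reads are few the interval is wide, and a value can change sign within it. ARF21 went from -0.39 to 0.04 with the most abundant transcript, and ARF30 from 0.09 to -0.02 with whole loci. The latter sum joins 2 loci of opposite sign and includes the ARF5 transcripts. No ARF transcript was called higher in early shoot in the main analysis, 1 with the plain log2 ratio, 1 with log2 of RPKM with 1 added and 2 with 0.1 added. Lower in early shoot, 4 transcripts became 7 with each of these 3 ratios and 0 with a threshold of 2.0, and 1 locus became 2 and 0, so the ARF16 call is lost at that threshold. Under the other scalings the log2 ratio moved by 0.03 to 0.07, and the upper quartile gave 0.61 in place of 0.53 for all ARF transcripts, 0.94 for ARF23 and 3 called transcripts. Leaving out the ARF23 locus, an alternative chosen after seeing the data, turned 0.53 into -0.68 for all ARF transcripts. Whole loci gave -0.44 for Locus_232 (ARF18) and -0.68 for Locus_4765. The most abundant ARF transcript alone gave 0.37 for Locus_4765 and -1.67 for ARF16. The causes of these shifts were not tested beyond the transcripts counted. Depth limits ARF18, ARF21 and ARF5 most, with 19 to 80 reads in early shoot and 28 to 61 in germination.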

Other observations

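The remaining descriptions with the word auxin had log2 ratios on both sides of 0. The transcript matched to an auxin-repressed protein (ARP1) had 993 reads in early shoot and 161 in germination, a log2 ratio of 1.78 (95% interval 1.54 to 2.03) and a G-fold value of 1.49, and was called higher in early shoot. The 5 transcripts of a dormancy/auxin associated protein had 2108 reads in early shoot and 691 in germination, a log2 ratio of 0.76 (95% interval 0.64 to 0.89), and the locus was not called. The transcript matched to an auxin-binding protein had 80 reads in early shoot and 30 in germination (log2 ratio 0.57, 95% interval -0.05 to 1.22). Both loci described as an auxin-regulated protein were not called: Locus_15019 had 140 reads in early shoot and 71 in germination (log2 ratio 0.13, 95% interval -0.29 to 0.56), and Locus_41773 had 31 in early shoot and 28 in germination (log2 ratio -0.70, 95% interval -1.49 to 0.09). The transcript matched to an OsIAA16-like protein had 4 reads in early shoot and 1 in germination and was not called.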
